A study of Mus musculus with 12 samples.

Results

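The genes described here encode the proteins of the cytosolic ribosome. They were taken from a table of 23940 genes as every row whose symbol begins with Rpl, Rps or Rplp directly followed by a digit, together with Rpsa. The 10 rows for the S6 kinases (Rps6k symbols) and the 7 rows whose names contain "-ps" were left out. This gave 87 genes. They comprise 43 large-subunit genes, 31 small-subunit genes and the 3 genes of the ribosomal stalk, which are called the 77 core genes below. The other 10 are 9 paralogs of core genes and Rps19bp1, which carries the name of a ribosomal protein only because its product binds Rps19. Of the 87 genes, 84 had a mean of at least 1 FPKM and entered the tests, among 12117 genes in all. FPKM scales the fragments of a gene by its transcript length and by the library's mapped total, so levels given in FPKM are per transcript length.

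The study measured messenger RNA by sequencing in 12 tumors of YUMM1.7, a line from a mouse melanoma driven by activated Braf, grown in immunodeficient mice. The tumors form 4 groups of 3. Control vehicle tumors did not overexpress PD-L2 and their hosts received the vehicle DMSO. Control BRAFi tumors were of the same genotype and their hosts received a BRAF inhibitor. PD-L2 vehicle and PD-L2 BRAFi tumors overexpressed PD-L2, an immune checkpoint ligand encoded by Pdcd1lg2, and received vehicle or the inhibitor. The sample labels name NSG hosts and the series design names NOD/SCID hosts. The promoter that drives PD-L2, the inhibitor, its dose, its duration and the age of the animals were not given in the labels. The series design describes the treated tumors as resistant, and the labels give treatment only. All tumors come from this single line, and the labels number separate tumors within each group.

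Pdcd1lg2 stood at 0.133 to 3.54 FPKM in the 6 control tumors and at 20.8 to 176 FPKM in the 6 PD-L2 tumors. Melanocyte markers were low: of 6 listed, only Mitf and Sox10 had a mean of at least 1 FPKM, Dct was listed at 0 in 10 libraries and Mlana in 11. All 5 lymphocyte markers had means below that level, and Cd3g was listed at 0 in every library. Fibroblast markers had means of 90.03 to 859 FPKM and macrophage markers of 27.9 to 417 FPKM. A tumor with fewer cells of a type and a tumor with less of an RNA in each cell cannot be told apart in such bulk samples. Sums over the table ran from 499840 to 648250 FPKM per library, and 16269 to 17469 genes had a value above 0. The table holds no counts, so the depth is unknown.

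A cytosolic ribosome joins a small subunit, which reads the mRNA, to a large subunit, which forms the peptide bond, and a lateral stalk on the large subunit recruits the elongation factors. Its proteins are made in step with ribosomal RNA and assembled in the nucleolus. Their mRNAs belong to the most abundant in growing cells, and most begin with a terminal oligopyrimidine (TOP) tract, a C followed by pyrimidines, through which mTOR signalling and Larp1 control their translation. In melanoma cells with an activated Braf allele, the kinase feeds the ERK pathway, which stimulates growth and ribosome production.

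Ribosomal protein mRNAs dominated these libraries. Of the 100 genes with the highest mean FPKM in the table, 59 belonged to the group. The highest means were 4342 FPKM for Rplp1, 4038 FPKM for Rpl41, 3092 FPKM for Rps27rt, 2911 FPKM for Rps12 and 2745 FPKM for Rps20. Rplp1 is a stalk protein, Rpl41 is a very short large-subunit protein, Rps27rt is a retrocopy of Rps27, and Rps12 and Rps20 belong to the small subunit. At the other end, 9 genes had means below 50 FPKM. The lowest tested means were 1.54 FPKM for Rps4l, 1.76 FPKM for Rpl26, 10.7 FPKM for Rpl30, 23.3 FPKM for Rps19bp1 and 26.3 FPKM for Rpl34. Rpl26, Rpl30 and Rpl34 are core genes whose near-identical copies held nearly all of the signal in the table, as described with the copy pairs. No core gene was listed at 0 in any library.

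The genes listed at 0 were the tissue-restricted paralogs. Rpl10l, a testis paralog of the X-linked Rpl10, was listed at 0 in 11 of the 12 libraries and had 0.0546 FPKM in PD-L2 BRAFi tumor 1. Rpl39l, a second testis-enriched paralog, was listed at 0 in 5 libraries and reached 1.26 FPKM in PD-L2 vehicle tumor 2. Rpl3l, the paralog of Rpl3 made in heart and skeletal muscle, was listed at 0 in 4 libraries. Its highest value, 0.575 FPKM, was in control vehicle tumor 3, which also had the highest sum of 5 skeletal muscle markers, 374 FPKM. Its next highest, 0.550 FPKM, was in PD-L2 BRAFi tumor 3, where the same markers summed to 139 FPKM. These 3 genes were below the filter and were not tested.

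Taken as a share of all FPKM in a library, the 87 genes made up 24.97%, 22.6% and 18.9% in the control vehicle tumors, with a mean of 22.2% ± 3.05 (SD, n = 3). In the control BRAFi tumors the share was 16.1%, 15.5% and 17.3% (16.3% ± 0.927, SD, n = 3), below every control vehicle tumor. PD-L2 vehicle tumors had 23.1%, 21.7% and 23.7% (22.8% ± 1.05, SD, n = 3). PD-L2 BRAFi tumors had 21.4%, 15.6% and 19.8% (18.9% ± 2.97, SD, n = 3), again below every PD-L2 vehicle tumor. In PD-L2 BRAFi tumor 2 a single small RNA row, Mir2137, held 16.1% of all FPKM, and it was listed at 0 in the other libraries. With small RNA genes taken out of the total, the share in PD-L2 BRAFi tumor 2 was 20.02%. On that scale the PD-L2 groups overlapped, with 22.49% in PD-L2 BRAFi tumor 1 and 22.45% in PD-L2 vehicle tumor 2. The control groups stayed apart, at 16.1% to 18.4% on BRAFi and 20.5% to 26.1% on vehicle. The median FPKM of the 77 core genes does not use the sum over the table. In control tumors on vehicle it was 1892, 1587 and 1240.4 FPKM (mean 1573 ± 326, SD, n = 3), and on BRAFi it was 977, 1038 and 1070.3 FPKM (1029 ± 47.2, SD, n = 3). In PD-L2 tumors on vehicle it was 1638, 1500.1 and 1793 (1644 ± 147, SD, n = 3), and on BRAFi it was 1479, 1247 and 1349 (1358 ± 117, SD, n = 3). Both measures placed all 3 control BRAFi tumors lowest, apart from the share of PD-L2 BRAFi tumor 2, and control vehicle tumor 1 highest.

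**Figure D1:**
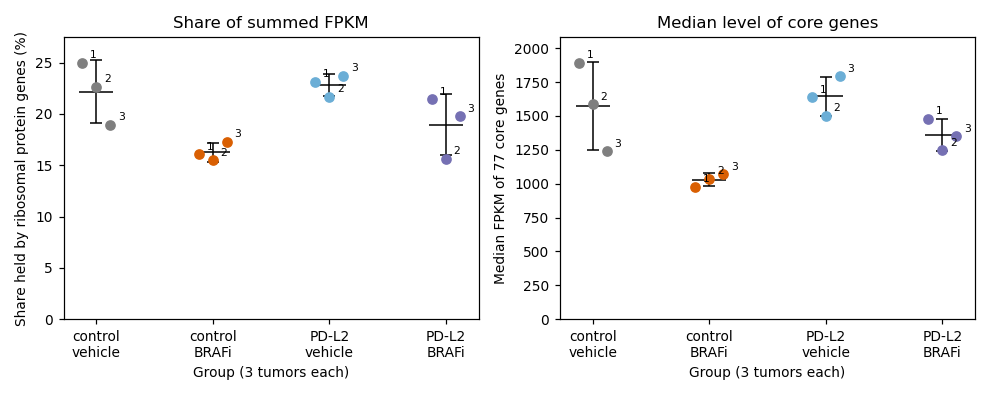
Share of all FPKM held by the 87 ribosomal protein genes (percent, left) and median FPKM of the 77 core genes (right) in each of the 12 libraries, by group; numbers give the tumor, and bars give the mean ± SD over 3 tumors. The control BRAFi tumors sit between 15.5% and 17.3% of all FPKM and between 977 and 1070 FPKM, below all control vehicle tumors on both scales.

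In control tumors, the BRAF inhibitor went with lower ribosomal protein mRNA. Of the 84 tested genes, 41 fell and 0 rose (limma on log2(FPKM + 1), Benjamini-Hochberg adjusted p under 0.05 over all 12117 genes), where the background was 3.91% lower and 3.51% higher. The median log2 fold change was -0.56, against 0.02 over all genes tested, and 82 estimates were below 0. In 64 genes every control BRAFi tumor lay below every control vehicle tumor, where 17% of all genes tested did so. By class, all 3 stalk genes fell (median -0.70), as did 21 of 31 small-subunit genes (median -0.60), 15 of 43 large-subunit genes (median -0.50) and 2 of the 7 tested paralogs and Rps19bp1 (median -0.48). These fold changes are on the log2(FPKM + 1) scale.

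The stalk genes encode the base and the arms of the stalk. Rplp1, an acidic arm protein, stood at 5991, 4983 and 4275 FPKM in control tumors on vehicle and 2612, 2892 and 3314 FPKM in those on BRAFi. Its log2 fold change was -0.78 ± 0.15 (SE; adjusted p = 0.0307), and its mean was 42.2% lower. Rplp0, the protein that anchors the arms, had 3527, 2936 and 2190.1 FPKM under vehicle and 1578, 1710.4 and 1966 FPKM under the inhibitor, with a log2 fold change of -0.70 ± 0.17 (SE; adjusted p = 0.0408). For Rplp2, the partner of Rplp1, the values were 3083, 2252 and 2002 FPKM and 1398, 1432 and 1626 FPKM, and the log2 fold change was -0.70 ± 0.16 (SE; adjusted p = 0.0387). All 3 inhibitor tumors lay below all 3 vehicle tumors for each of them.

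Among small-subunit genes, Rps19 had the smallest p. Rps19, the gene most often mutated in Diamond-Blackfan anemia in humans, had 1152, 853 and 767 FPKM in control tumors on vehicle and 437, 498 and 559 FPKM in those on BRAFi. It fell by 0.88 ± 0.16 on the log2 scale (SE; adjusted p = 0.0301), a mean 46.1% lower. Rps14, whose loss of a copy marks the human 5q- syndrome, had 2589.6, 2188 and 1231 FPKM and 905, 941 and 958 FPKM. Its log2 fold change was -1.03 ± 0.23 (SE; adjusted p = 0.0355), and the vehicle tumors spread more widely than the inhibitor tumors without overlapping them. Rps15, which sits near the decoding centre, had 3484, 2702 and 1952 FPKM and 1388, 1277 and 1367 FPKM, a log2 fold change of -0.97 ± 0.19 (SE; adjusted p = 0.0301). Rpsa, the small-subunit protein also known as the laminin receptor, had 1455, 1542 and 1120.1 FPKM and 888, 880.0 and 905 FPKM. It fell with a log2 fold change of -0.61 ± 0.13 (SE; adjusted p = 0.0330), and its 3 inhibitor tumors lay close together, below all vehicle tumors. Rps21, Rps29 and Rps2 also fell, with log2 fold changes of -0.90, -0.75 and -0.60 and adjusted p-values of 0.0450, 0.0354 and 0.0330.

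In the large subunit, Rpl36 had 2911, 1851 and 1593 FPKM in control tumors on vehicle and 876, 948 and 1141 FPKM in those on BRAFi, a log2 fold change of -1.06 ± 0.20 (SE; adjusted p = 0.0301). Rpl41 had 6637, 5406 and 3677 FPKM and 2858, 2380.2 and 2654 FPKM, with -0.96 ± 0.19 (SE; adjusted p = 0.0301). For both genes control vehicle tumor 1 was the highest library of all 12. Rpl13, Rpl29 and Rpl38 fell as well, by log2 fold changes of -0.79, -0.66 and -0.69 with adjusted p-values of 0.0330, 0.0330 and 0.0399; Rpl38 is required for the translation of Hox mRNAs in the mouse embryo. Rpl10, which joins the large subunit late and is mutated in human T-cell leukemia, had 2800.0, 2329.8 and 1964 FPKM and 1341, 1597 and 1658 FPKM. Its log2 fold change was -0.62 ± 0.15 (SE; adjusted p = 0.0396).

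Genes with known roles outside the ribosome included both genes that fell and genes that did not pass. Rpl5 and Rpl11 join the 5S ribosomal RNA and, when ribosome assembly fails, bind Mdm2 and stabilize p53. Rpl11 fell, from 2078, 1786 and 1240.4 FPKM to 1099.9, 954 and 1026 FPKM, with a log2 fold change of -0.70 ± 0.17 (SE; adjusted p = 0.0398). Rpl5 had 721, 781 and 521 FPKM under vehicle and 515, 617 and 543 FPKM under the inhibitor, groups that overlapped, with -0.25 ± 0.17 (SE; adjusted p = 0.319). Rps6, the substrate of the S6 kinases, had 1041, 1054 and 808 FPKM and 873, 859 and 779 FPKM, also overlapping, with -0.20 ± 0.25 (SE; adjusted p = 0.597). Rps3, which also takes part in DNA repair, had a log2 fold change of -0.39 ± 0.19 (SE; adjusted p = 0.179). Rpl13a, part of a translational silencing complex in human myeloid cells, had -0.60 ± 0.18 (SE; adjusted p = 0.0613). Rps27a, made as a fusion with ubiquitin, had -0.47 ± 0.14 (SE; adjusted p = 0.0612), and Rpl22, needed for T-cell development in mice, had -0.39 ± 0.13 (SE; adjusted p = 0.0732). For Rpl13a and Rps27a, as for Rpl22, the inhibitor tumors all lay below the vehicle tumors although the adjusted p was above the threshold.

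The highest estimates were those of Rps15a, Rpl23, Rpl7l1, Rpl26 and Rps27. Rpl23, a large-subunit protein that also binds Mdm2, had 873, 885 and 742 FPKM in control tumors on vehicle and 729, 845 and 773 FPKM in those on BRAFi, with a log2 fold change of -0.09 ± 0.13 (SE; adjusted p = 0.654). Rps15a had 84.2, 93.7 and 67.6 FPKM and 65.2, 81.8 and 72.9 FPKM, with -0.15 ± 0.16 (SE; adjusted p = 0.545). Both pairs of groups overlapped. Rpl26 and Rps27 had the 2 estimates above 0, 0.07 ± 1.07 and 1.64 ± 1.20 (SE), with adjusted p-values of 0.974 and 0.361. Both have a near-identical copy in the table. Rps15a has 2 copies in the table that are at least 95% identical, and its sum with them was not examined.

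**Figure D2:**
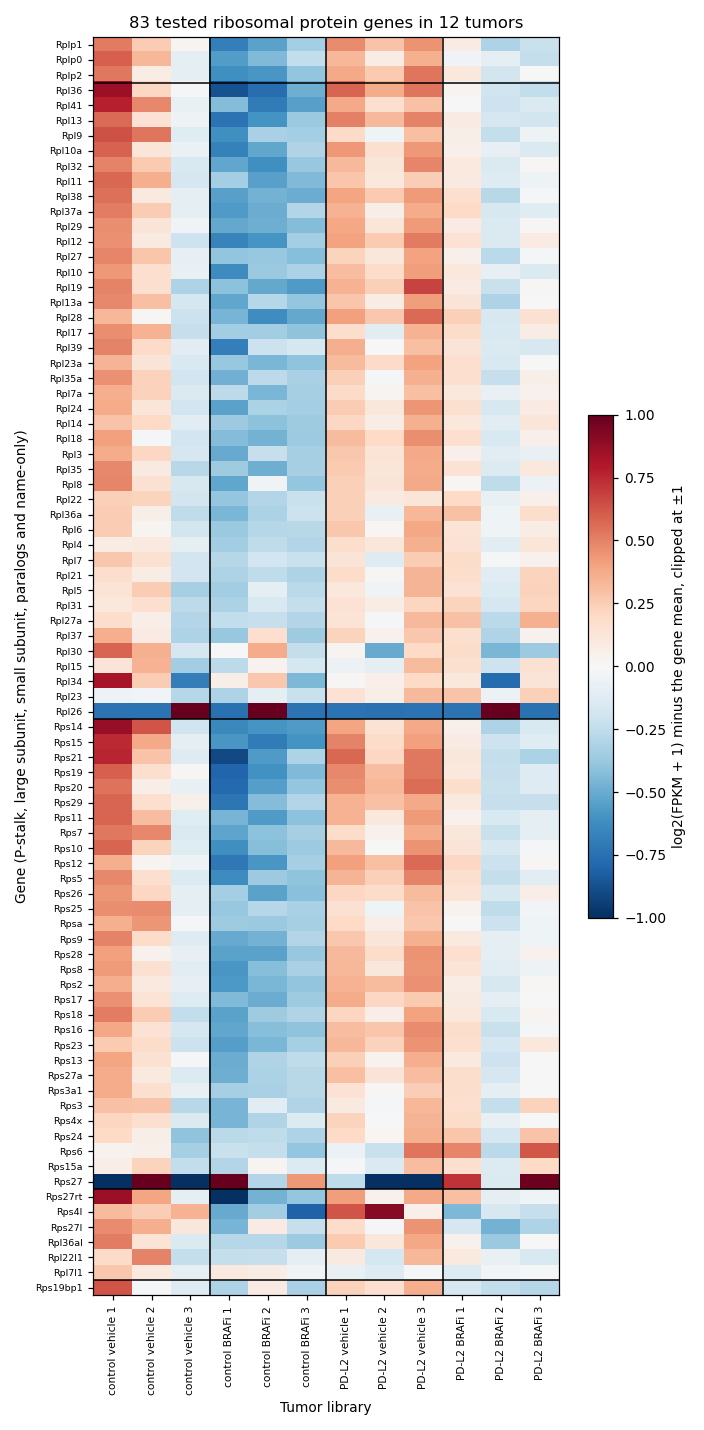
Heat map of log2(FPKM + 1) minus each gene's mean for 83 of the 84 tested ribosomal protein genes (rows) in the 12 libraries (columns, by group), with values beyond ±1 drawn at ±1. The 3 control BRAFi columns are low for most rows: over the 84 genes, control BRAFi tumor 1 was the lowest of the 12 libraries for 53 genes, tumor 2 for 15 and tumor 3 for 8, while control vehicle tumor 1 was the highest for 45 genes and PD-L2 vehicle tumor 3 for 28.

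The count of 41 rested on individual libraries, and the median rested on them less. With control vehicle tumor 1 or 2, control BRAFi tumor 2 or 3, or PD-L2 vehicle tumor 2 left out, 0 genes passed; without PD-L2 BRAFi tumor 1 there were 2, without control BRAFi tumor 1 or PD-L2 vehicle tumor 1 there were 3, and without PD-L2 vehicle tumor 3 there were 13. Without control vehicle tumor 3 the count was 62, and without PD-L2 BRAFi tumor 2 or 3 it was 40 or 35. The median log2 fold change stayed between -0.70 and -0.43 in these 12 fits. Quantile normalization left 13 genes lower and a median of -0.17, and removal of the trend of fold change on transcript length left 0 genes and a median of -0.20. Removal of the GC trend left 16 genes, and testing all genes without the filter, or the 6 control tumors alone, left 0.

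Marker genes of other cell types were examined in the same libraries. The 6 erythroid markers, 5 of them tested, summed to 192 to 287 FPKM in control vehicle tumors, 31.1 to 44.7 FPKM in control BRAFi tumors, 132 to 386 FPKM in PD-L2 vehicle tumors and 164 to 266 FPKM in PD-L2 BRAFi tumors. None of them was listed at 0 in any library. Of the 5 tested, 4 fell in control tumors and 0 in PD-L2 tumors (limma), with median log2 fold changes of -2.25 and 0.04. The 7 macrophage markers summed to 1554 to 2542 FPKM, 540 to 1042 FPKM, 751 to 1715 FPKM and 371 to 1295 FPKM in the same order, and 0 of the 7 passed in either genotype. The 3 pericyte markers summed to 91.0 to 103 FPKM and 85.3 to 100.4 FPKM in the vehicle groups of control and PD-L2 tumors, and to 139 to 205 FPKM and 139 to 189 FPKM under the inhibitor. Of these 3, 1 rose in control tumors, Cspg4 (1.22 ± 0.23, SE; adjusted p = 0.0301), and 0 passed in PD-L2 tumors. The part of these cells in the ribosomal protein values was not tested.

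In PD-L2 tumors, no ribosomal protein gene passed the threshold under the inhibitor. The limma fit gave 0 of 84 in either direction, against a background of 0.0578% lower and 0.182% higher. In the same fit 21 of the 84 had an unadjusted p under 0.05, as did 2586 of all 12117 genes tested. The median log2 fold change was -0.27, with 79 estimates below 0; it was -0.078 with quantile normalization and -0.0352 with the length trend removed. In 41 genes every PD-L2 BRAFi tumor lay below every PD-L2 vehicle tumor, where 14.3% of all genes tested did so. The lowest estimates were those of Rps4l (-0.81 ± 0.22, SE; adjusted p = 0.111), Rpl36 (-0.64 ± 0.20; 0.145), Rps21 (-0.59 ± 0.23; 0.194), Rplp1 (-0.55 ± 0.15; 0.114) and Rpl13 (-0.53 ± 0.16; 0.137).

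Rplp1 stood at 5809.7, 5106 and 5713 FPKM in PD-L2 tumors on vehicle and 4430.2, 3382 and 3593 FPKM in those on BRAFi. Rpl36 stood at 2409, 2076 and 2324 FPKM and 1636, 1398 and 1354 FPKM, and Rps19 at 1059, 943 and 1092 FPKM and 817, 648 and 695 FPKM. For each of these genes all inhibitor tumors lay below all vehicle tumors. Rps14 had 1866, 1562 and 1839 FPKM and 1464, 1143 and 1277 FPKM, without overlap, and an estimate of -0.44 ± 0.23 (SE; adjusted p = 0.294). Rps6 stood apart from these: it had 973, 871 and 1473 FPKM under vehicle and 1424, 841 and 1563 FPKM under the inhibitor, with an estimate of 0.19 ± 0.25 (SE; adjusted p = 0.683). PD-L2 vehicle tumor 3 and PD-L2 BRAFi tumors 1 and 3 were the high libraries for Rps6, and the other 9 libraries ran from 779 to 1054 FPKM.

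Whether the response differed between control and PD-L2 tumors was tested directly, as the PD-L2 response minus the control response. No gene of the group passed (limma, 0 of 84, background 0.0165% higher). In the same fit 1 of the 84 had an unadjusted p under 0.05, as did 542 of all 12117 genes tested. The median difference was 0.28 on the log2 scale, against -0.01 over all genes tested, and 81 estimates were above 0. That 1 gene was Rps27rt, with 0.88 ± 0.40 (SE; unadjusted p = 0.0484, adjusted p = 0.956). For the sum of Rps27rt and its identical copy Rps27 the difference was 0.62 ± 0.31 (SE; limma adjusted p = 0.956). Rpl41 had 0.56 ± 0.26 (SE; adjusted p = 0.956). So although 41 genes passed in control tumors and 0 in PD-L2 tumors, no gene's response was called different between them.

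Averaged over control and PD-L2 tumors, the inhibitor effect rested on all 12 libraries. By this measure 59 of the 84 genes fell and 0 rose (limma), where the background was 11.2% lower and 13.4% higher, and the median log2 fold change was -0.42. All 41 genes that fell in control tumors were among the 59. By class they were 3 of 3 stalk genes, 25 of 31 small-subunit genes, 26 of 43 large-subunit genes and 5 of 7 among the paralogs and Rps19bp1. The smallest adjusted p-values were those of Rplp1 (-0.67 ± 0.11, SE; adjusted p = 0.00725), Rps19 (-0.70 ± 0.12; 0.00725), Rpl36 (-0.85 ± 0.14; 0.00756) and Rpl13 (-0.66 ± 0.12; 0.00807). Rps2 (-0.50 ± 0.09; 0.00832), Rps15 (-0.71 ± 0.13; 0.00859) and Rps29 (-0.60 ± 0.12; 0.00903) followed. Rpl5, Rps3 and Rps6 had -0.16 ± 0.12, -0.24 ± 0.13 and -0.00 ± 0.18 (SE), with adjusted p-values of 0.352, 0.201 and 0.991. Without PD-L2 vehicle tumor 1 the count was 34. It was 21 without the filter and 24 with quantile normalization. With the length trend removed it was 11, and with length and GC trends both removed it was 1.

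**Figure D3:**
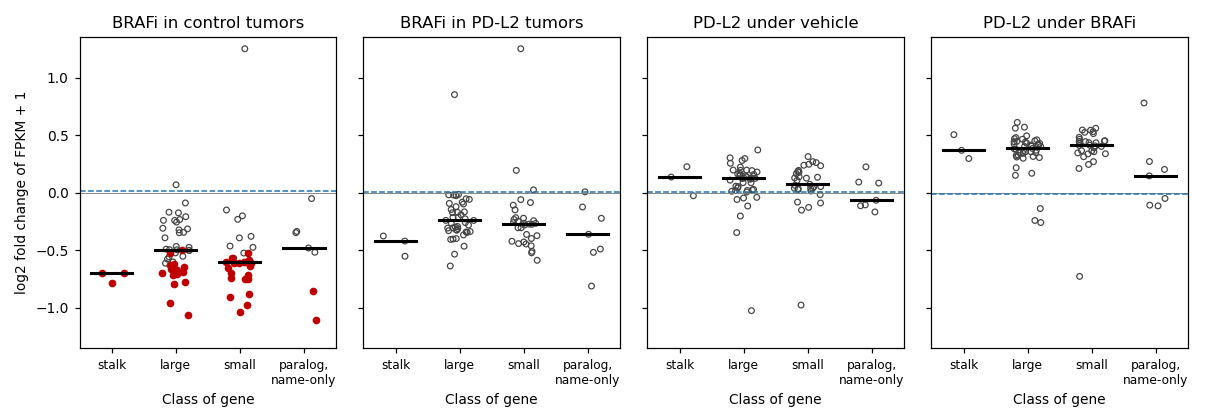
Log2 fold changes of the tested ribosomal protein genes by class in 4 comparisons: BRAFi against vehicle in control and in PD-L2 tumors, and PD-L2 against control under vehicle and under BRAFi; filled red points have a limma adjusted p under 0.05, the bar is the class median, the dashed line is the median of all genes tested, and values beyond the axis are drawn at its edge. Red points appear only for the inhibitor in control tumors, where 41 of 84 genes fell.

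PD-L2 tumors were also compared with control tumors under each treatment, using the same libraries as above. Under vehicle, 0 of 84 genes passed (limma, background 0% in both directions), and the median log2 difference was 0.11. In the same fit 2 of the 84 had an unadjusted p under 0.05, as did 1319 of all 12117 genes tested. Rpl23 and Rpl4 were the only genes for which all PD-L2 vehicle tumors lay above all control vehicle tumors, where 10% of all genes tested did so; Rpl4 was named after its values were seen. Rpl28, a large-subunit protein, had the highest estimate, with 3310.0, 2646 and 2265 FPKM in control tumors on vehicle and 3489.8, 3161 and 3891 FPKM in PD-L2 tumors on vehicle, a log2 difference of 0.37 ± 0.16 (SE; adjusted p = 0.428). Rps12, Rpl19, Rpl23 and Rpl12 followed with 0.31, 0.30, 0.30 and 0.28. At the low end were Rpl26 (-1.02), Rps27 (-0.98), Rpl30 (-0.35), Rpl9 (-0.20) and Rpl7l1 (-0.17). The median turned to -0.04 without control vehicle tumor 3 and to -0.01 with quantile normalization.

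Under the inhibitor the ribosomal protein genes stood higher in PD-L2 tumors than in control tumors, without passing the test. The limma fit called 0 of 84, against a background of 0.0578% higher and 0.0165% lower. In the same fit 53 of the 84 had an unadjusted p under 0.05, as did 856 of all 12117 genes tested. The median log2 difference was 0.40, or 0.11 with quantile normalization. In 63 genes all 3 PD-L2 BRAFi tumors lay above all 3 control BRAFi tumors, where 6.68% of all genes tested did so; 0 lay below without overlap, where 4.78% of all genes did. Rpl28 had 1907, 1705 and 1840.3 FPKM in control BRAFi tumors and 3095, 2351 and 2929 FPKM in PD-L2 BRAFi tumors, a log2 difference of 0.61 ± 0.16 (SE; adjusted p = 0.441). Rps28 and Rps2, both of the small subunit, had 0.52 ± 0.14 and 0.45 ± 0.13 (SE), with adjusted p-values of 0.459 and 0.482. The highest estimates were those of Rps27rt (0.78), Rpl28, Rpl36 (0.57), Rpl12 (0.56), a protein at the base of the stalk, and Rps6 (0.56). Rps27 (-0.73), Rpl30 (-0.26), Rpl26 (-0.24), Rpl34 (-0.14) and Rps27l (-0.11) were lowest. Erythroid marker sums did not overlap between these groups, at 31.1 to 44.7 FPKM and 164 to 266 FPKM. Of the 5 tested erythroid markers, 3 passed as higher in PD-L2 tumors (limma), where 0.0578% of all genes tested did. The sums of the macrophage, endothelial, fibroblast and pericyte markers overlapped. The part of these cells in the ribosomal protein difference was not tested.

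The genes did not all fall to the same degree. To measure this, each library was set on the median log2(FPKM + 1) of the 84 genes, a scale added after the data were seen, on which the median of all genes tested moved to 0.61 in control tumors. On that scale 6 ribosomal protein genes lay below the others of the group under the inhibitor in control tumors (limma, adjusted over 12117 genes; background 0.248% lower): Rps27rt (-0.51), Rpl36 (-0.46), Rps14 (-0.43), Rps15 (-0.38), Rpl41 (-0.36) and Rps19 (-0.28). Rps27rt stood at 0.342, 1.125 and 1.107 on that scale in control BRAFi tumors 1, 2 and 3. In tumor 1 its identical copy Rps27 held 49.6% of the sum of both, as described with the copy pairs. Another 14 genes lay above the others of the group, among them Rpl7l1 (0.55), Rpl23 (0.51), Rps15a (0.45) and Rpl5 (0.34), where the background on that scale was 53.3% higher. These 20 genes became 5 without control vehicle tumor 1, 8 without control BRAFi tumor 2, and 13 when tumor 2 of the control vehicle group or tumor 1 of the control BRAFi group was left out. They became 8 with the length trend removed and 0 with length and GC trends removed together with a replicate block. For the average over control and PD-L2 tumors, 9 lay below and 15 above (background 0.685% and 50.1%), and Rps6 was among the latter with 0.41. In PD-L2 tumors alone 0 passed (limma, background 0.00825% lower and 0.165% higher).

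Sequence composition and level ran along with the size of the difference. Across the 83 tested genes with a coding sequence in the reference, the log2 fold change in control tumors had a Spearman correlation of -0.45 with coding GC content, a description across genes that share the same libraries. Over 12038 genes of the table, with transcript GC content, it was -0.33. The 28 genes of lowest coding GC, 39.9% to 50.6%, had a median log2 fold change of -0.38 and 5 of them fell. The 28 of highest GC, 54.6% to 61.6%, had a median of -0.61 and 17 fell, and of the 27 between them 18 fell with a median of -0.59. In PD-L2 tumors the medians in the same order were -0.12, -0.34 and -0.29. The fold change in control tumors also had a Spearman correlation of -0.59 with the mean level of the gene. The transcripts are short, with a median of 773 nt against 2610 nt over the table, and 77 of the 84 were in the shortest of 5 equal bins of length, up to 1417 nt. The other genes of that bin had a median of -0.28 in control tumors and -0.19 in PD-L2 tumors, and the 77 had -0.57 and -0.28. The part of GC content and length in the differences between groups was not tested beyond the fits with those trends removed.

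**Figure D4:**
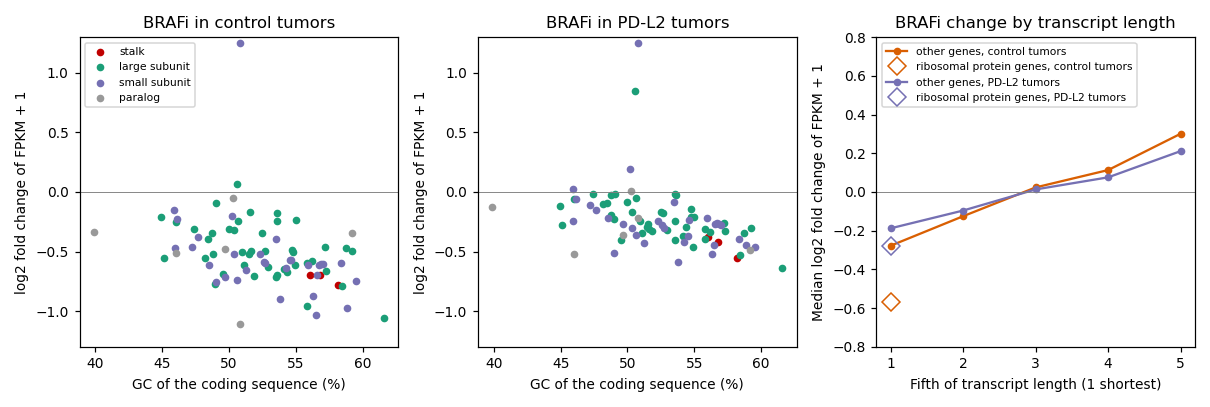
Left panels: coding GC content (percent) against the log2 fold change of BRAFi against vehicle for each ribosomal protein gene in control and PD-L2 tumors, with values beyond the axis drawn at its edge. Right panel: median log2 fold change by bin of transcript length (1 shortest, 5 longest) for the other genes, with diamonds for the ribosomal protein genes of the shortest bin, which sit at -0.57 in control and -0.28 in PD-L2 tumors against -0.28 and -0.19 for the other genes of that bin.

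The paralogs were compared with their usual copies. Rps4l, a paralog of the X-linked Rps4x, fell in control tumors from 1.98, 1.85 and 2.06 FPKM to 0.693, 0.889 and 0.370 FPKM, with a log2 fold change of -0.86 ± 0.22 (SE; adjusted p = 0.0469). Rps4x had -0.38 ± 0.14 (SE; adjusted p = 0.1004). Rps4l is a low gene, so a pseudocount of 1 understates its change. In PD-L2 tumors it had 2.70, 3.50 and 1.49 FPKM under vehicle and 0.761, 1.14 and 1.04 FPKM under the inhibitor, without overlap. Rps27l, a p53 target in human cells, had 360.0, 335 and 280.1 FPKM and 188, 275 and 222 FPKM in control tumors, and 294, 255 and 355 FPKM and 230.4, 187 and 209.9 FPKM in PD-L2 tumors. Its estimates were close in both, -0.52 ± 0.17 and -0.52 ± 0.17 (SE; adjusted p = 0.0760 and 0.149), and the averaged effect passed with -0.52 (adjusted p = 0.0159).

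Rpl22l1, which can replace Rpl22 in the large subunit, had 170.2 ± 42.2 FPKM (SD, n = 3) in control vehicle tumors, close to the 159 ± 24.9 FPKM of Rpl22. Under the inhibitor Rpl22l1 had 132 ± 7.82 FPKM and Rpl22 had 120.0 ± 6.95 FPKM (SD, n = 3), with log2 fold changes of -0.34 ± 0.18 and -0.39 ± 0.13 (SE; adjusted p = 0.229 and 0.0732). Rpl36al had -0.48 ± 0.17 (SE; adjusted p = 0.0872) beside -0.35 ± 0.16 for Rpl36a (adjusted p = 0.160). Rpl7l1, a paralog of Rpl7, had 43.9, 38.8 and 34.0 FPKM and 38.8, 38.1 and 35.2 FPKM in control tumors, overlapping groups, with -0.05 ± 0.10 (SE; adjusted p = 0.758). Rpl7 had -0.31 ± 0.14 (SE; adjusted p = 0.147). Rps19bp1 had -0.35 ± 0.18 (SE; adjusted p = 0.220).

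Ribosomal protein genes have many processed copies in the mouse genome, and reads from identical copies cannot be told apart. Copies at least 95% identical over at least 90% of the coding sequence were searched in the GENCODE M21 transcripts (GRCm38). At least 1 was found for 78 of the 87 genes; Rps4l had no coding sequence in the reference and was not searched. Added over the genes, the counts came to 565, where a copy shared between genes counts for each. For 15 genes such a copy had a row in the table. In 4 pairs the copy held most of the signal. Other genes with a copy in the table, among them Rps19, Rplp2, Rpl29, Rpl14 and Rps26, were not summed with it. Their values taken singly may share reads with that copy. The copies Gm15772, Gm12191 and Rpl34-ps1 are not ribosomal protein genes by the symbol rule, and were chosen after their values were seen. The coding sequences are shown for the 2 pairs at the extremes. Rps27 (GRCm38 chr3:90212522-90213651, minus strand) and Rps27rt (chr9:114982366-114982739, minus strand) share every base of the 252 before the stop codon, so the single sequence below stands for both.
Rps27: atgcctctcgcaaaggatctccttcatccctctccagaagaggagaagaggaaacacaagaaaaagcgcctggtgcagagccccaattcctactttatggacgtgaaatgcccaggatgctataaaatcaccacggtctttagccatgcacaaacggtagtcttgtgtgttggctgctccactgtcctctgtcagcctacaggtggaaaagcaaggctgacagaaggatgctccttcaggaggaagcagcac
Rpl26 (chr11:68901583-68906989, plus strand) and the processed pseudogene Gm15772 (chr5:3236431-3236868, plus strand) differ at 2 of 435 bases, which are in capitals in the stretch from base 157 to base 308 of the coding sequence.
Rpl26: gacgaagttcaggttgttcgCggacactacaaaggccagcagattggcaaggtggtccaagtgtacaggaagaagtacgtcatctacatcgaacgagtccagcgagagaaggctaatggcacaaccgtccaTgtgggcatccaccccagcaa
Gm15772: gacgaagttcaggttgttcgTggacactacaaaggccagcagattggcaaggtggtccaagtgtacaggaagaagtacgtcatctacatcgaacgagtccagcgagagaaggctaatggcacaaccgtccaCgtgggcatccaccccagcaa
Rpl34 and Rpl34-ps1 differ at 2 of 351 bases, and Rpl30 and Gm12191 at 1 of 345.

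The split between such copies varied by library. Rps27 had 40.5, 473 and 18.7 FPKM in control tumors on vehicle, 1158, 77.2 and 128 FPKM in those on BRAFi, 79.4, 23.3 and 25.1 FPKM in PD-L2 tumors on vehicle and 157, 85.6 and 188 FPKM in those on BRAFi. Rps27rt had 5274, 3816 and 2720.2 FPKM in control tumors on vehicle and 1176, 2099.9 and 2218 FPKM in those on BRAFi. In control BRAFi tumor 1, Rps27 held 49.6% of the sum of both, in control vehicle tumor 2 it held 11.02%, and in the other 10 libraries it held 0.659% to 6.24%. Summed, the pair had 4114 ± 1297 FPKM (SD, n = 3) in control vehicle, 2286 ± 94.4 in control BRAFi, 3595 ± 507 in PD-L2 vehicle and 3193 ± 487 in PD-L2 BRAFi tumors. The log2 fold change of the sum was -0.80 ± 0.22 (SE; limma adjusted p = 0.0518) in control tumors and -0.48 ± 0.15 (adjusted p = 0.0445) on average, whereas Rps27rt alone had -1.11 ± 0.28 (SE; adjusted p = 0.0448) in control tumors. The values of Rps27 and Rps27rt taken singly are uncertain for this reason.

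For the other pairs the copy held nearly everything. Rpl26 had 0.0020 to 0.0046 FPKM in 9 libraries and 4.90 to 8.73 FPKM in the other 3, while its copy had 1450 to 2555 FPKM in all 12. Rpl30 made up 0.529% to 1.15% of the sum with its copy, and Rpl34 0.843% to 2.02%. The sums gave log2 fold changes in control tumors of -0.38 ± 0.16 for the Rpl26 pair, -0.57 ± 0.21 for the Rpl34 pair and -0.10 ± 0.18 for the Rpl30 pair (SE), with limma adjusted p-values of 0.127, 0.1001 and 0.724. The estimates for Rpl26, Rpl30 and Rpl34 alone describe the small part of the reads that the authors' counting gave to those rows.

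**Figure D5:**
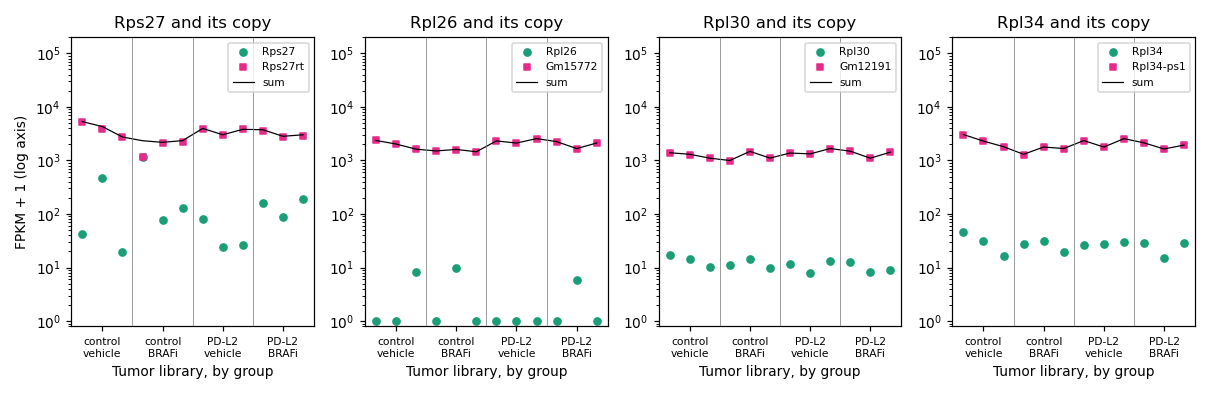
FPKM + 1 (log axis) of 4 ribosomal protein genes, their near-identical copies and the sum of both in each of the 12 libraries, by group. Rps27 moves between 18.7 and 1158 FPKM, while its sum with Rps27rt runs from 2177 to 5314 FPKM.

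The start of the mRNA was examined because of the TOP tract. RefSeq promoters on GRCm38.p6 matched 66 of the genes by symbol, with 78 annotated starts. A tract was searched on the gene's strand as a C followed by at least 4 pyrimidines. It began exactly at 14 of the 78 starts (17.9%), against 2.47% of 32773 other promoters, and within 5 bases of 32 (41.0%), against 18.3%. The windows below run from 10 bases before the annotated start and hold 30 bases, with the tract in capitals; they are shown for genes whose groups overlapped under the inhibitor (Rps15a and Rps6), genes that fell (Rpl38, Rplp2, Rpl13 and Rpsa, the last 2 with no tract within 5 bases), Rpl28, which had the highest estimate for PD-L2 against control under vehicle, and the identical pair Rps27 and Rps27rt, whose windows differ upstream of the shared sequence.
Rps15a (chr7:118116128-118116157, minus strand): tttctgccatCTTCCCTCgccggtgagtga
Rpl38 (chr11:114668570-114668599, plus strand): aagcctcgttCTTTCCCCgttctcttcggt
Rps6 (chr4:86857348-86857377, minus strand): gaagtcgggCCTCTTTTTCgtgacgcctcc
Rplp2 (chr7:141447641-141447670, plus strand): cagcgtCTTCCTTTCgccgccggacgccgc
Rpl28 (chr7:4792955-4792984, plus strand): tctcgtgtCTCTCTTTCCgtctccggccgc
Rps27 (chr3:90213629-90213658, minus strand): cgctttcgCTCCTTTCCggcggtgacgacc
Rps27rt (chr9:114982720-114982749, minus strand): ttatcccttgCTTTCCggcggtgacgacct
Rpl13 (chr8:123102340-123102369, plus strand): tttcgcctgattttgattggcgtttgagat
Rpsa (chr9:120127756-120127785, plus strand): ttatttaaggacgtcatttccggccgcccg
Genes with and without a tract near the annotated start had close medians. The split follows the annotated start, so it cannot tell which mRNAs begin with a TOP tract. The median log2 fold change in control tumors was -0.52 for the 30 tested genes with a tract within 5 bases and -0.57 for the 33 without, and in PD-L2 tumors it was -0.25 for both. The ETS core CCGGAAG, searched on both strands over 300 bases of promoter, occurred in 34.6% of ribosomal protein promoters and 8.8% of the others. The YY1 core AAGATGGC occurred in 10.3% and 2.73%, and TATAAA in 8.97% and 13.6%. Such matches are descriptions of the letters in these windows.

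Genes of the wider translation machinery were described from lists. Of 20 other genes with TOP mRNAs or ribosomal proteins under other symbols, 3 fell and 0 rose in control tumors (limma), where 3.91% of all genes tested fell, with a median log2 fold change of -0.23. Among them were Gnb2l1 (-0.69 ± 0.18, SE; adjusted p = 0.0450), which encodes the small-subunit scaffold Rack1, and Naca (-0.55 ± 0.12; 0.0375), a chaperone of nascent chains. Fau, a small-subunit protein made as a fusion, had -0.70 ± 0.19 (SE; adjusted p = 0.0516), and the elongation factor Eef1a1 had -0.54 ± 0.15 (SE; adjusted p = 0.0550). Eef2, the translocase, had 0.02 ± 0.11 (SE; adjusted p = 0.907), and Tpt1 had -0.44 ± 0.17 (SE; adjusted p = 0.114). On average over both genotypes 7 of the 20 fell, where 11.2% of all genes tested did.

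The next lists concern ribosome assembly and growth control, and in control tumors the shares over all genes tested were 3.91% lower and 3.51% higher. Of 60 assembly factors, 4 rose and 0 fell in control tumors, with a median of 0.24: Heatr1 (0.69, adjusted p = 0.0315), Noc3l (0.72, 0.0330), Utp15 (0.51, 0.0476) and Ddx21 (0.77, 0.0499), all nucleolar proteins. On average over both genotypes 11 of the 60 rose and 5 fell (18.3% and 8.33%), where 13.4% and 11.2% of all genes tested did. Of 14 genes of RNA polymerase I and its factors, Polr1b rose (0.63, adjusted p = 0.0362) and Polr1c (-0.45, 0.0468) and Polr1d (-0.50, 0.0493) fell. Of 31 initiation factors 1 rose (3.23%, near the share over all genes), Eif3a (0.66, 0.0408), and the median was 0.00. Of 19 genes of mTOR and S6 kinase signalling, 3 rose, Larp1 (0.58, 0.0448), Larp4 (0.92, 0.0396) and Rps6ka3 (0.98, 0.0473), and Akt1s1 fell (-0.46, 0.0492). Mtor, Rps6kb1 and Eif4ebp1 had 0.50, 0.43 and -0.18, with adjusted p-values of 0.0795, 0.0595 and 0.554. Outside the ribosomal protein genes, the median log2 fold change in control tumors was -0.28 in the shortest bin of transcript length and 0.30 in the longest. The part of length was not tested for these lists, nor for the MYC and p53 lists below.

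The MYC list held 8 tested genes, among them Myc, which promotes transcription of ribosomal protein genes, and antagonists of it such as Mnt. Myc and Mnt rose in control tumors and 0 of the 8 fell, where 3.51% of all genes tested rose. Myc had 21.5, 20.4 and 21.7 FPKM in control tumors on vehicle and 49.2, 40.1 and 32.1 FPKM in those on BRAFi, a log2 fold change of 0.88 ± 0.23 (SE; adjusted p = 0.0463), and Mnt had 0.56 ± 0.13 (SE; adjusted p = 0.0391). Of 16 p53 targets and regulators 0 passed (limma), with a median of 0.25. Cdkn1a, the p53-induced cell cycle inhibitor, had 60.0, 70.2 and 65.0 FPKM and 107, 315 and 118 FPKM, with 1.28 ± 0.52 (SE; adjusted p = 0.123), and Mdm2 had 0.66 ± 0.27 (SE; adjusted p = 0.122). In PD-L2 tumors no gene of these lists passed the threshold under the inhibitor (limma), and Myc had 21.8, 27.5 and 35.6 FPKM and 38.7, 24.8 and 43.0 FPKM, an estimate of 0.31 ± 0.23 (SE; adjusted p = 0.455).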

How the data were processed

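Messenger RNA of 12 tumors was measured in 4 groups of 3. Per the labels' protocols, an RNeasy micro kit gave the RNA and poly(A)-selected TruSeq libraries were made from it. The labels give paired-end reads and the series design single-end reads. The authors deposited a single table of FPKM values. The submitters' processing notes name TopHat, TopHat2, Cuffnorm and Cuffdiff, with no versions, and mm9. FPKM divides by transcript length and library total, so a few dominant rows can lower the others. Whether they did so here was not tested, and the depth is unknown.

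Genes averaging 1 FPKM or more were tested with limma 3.58.1 (R 4.3.3) on log2(FPKM + 1), in all 12 libraries with a mean per group, a variance trend and Benjamini-Hochberg adjustment over 12117 genes at 0.05. The contrasts were the inhibitor effect in each genotype, their average and difference, and PD-L2 against control under each treatment. Contrasts that reuse libraries are not independent. Labels name separate tumors, so p-values measure the spread between tumors of a single line.

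Genes named were those of the stalk, Rpsa, 11 genes with known other roles, the paralogs, the 5 highest and lowest by level and by estimate in each comparison, up to 10 with the smallest p past the threshold, genes listed at 0, and fixed pathway genes. Some items are not reported here. The members and lists were chosen with earlier results of these data known. Sequences are from RefSeq (GRCm38.p6) and GENCODE M21 (GRCm38), and no coordinates of the mm9 build were used. Lengths and GC content are from GENCODE M21. The limma script was tested on simulated data. Alternatives covered pseudocount, filter, scaling, trends in length and GC content, a replicate block and leaving out each library.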

Additional observations from a re-analysis of the deposited data

How the results depend on the processing

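The count of 41 lower genes in control tumors was 40 and 39 with pseudocounts of 0.1 and 5, 46 with a filter of 5 FPKM and 35 with a replicate block. It was 13 with quantile normalization, 16 with the GC trend removed, and 0 without a filter, with a fit on the 6 control tumors, and with the length trend removed, whether alone, with the GC trend or with the block. Its median was then -0.17 (quantile), -0.20 (length) and -0.16 (length and GC). In PD-L2 tumors the median was -0.078, -0.0352 and -0.022 under these settings, and on average -0.12, -0.14 and -0.089. The average count of 59 was 51 with the block, 21 without a filter, 24 with quantile normalization, 11 with the length trend removed, 7 with the block as well, and 1 with length and GC removed, with or without the block. PD-L2 against control gave medians of -0.0067 under vehicle and 0.11 under the inhibitor with quantile normalization. Leaving out each library gave 0 to 62 genes in control tumors (medians -0.70 to -0.43) and 34 to 65 on average (-0.49 to -0.36). The medians were -0.35 to -0.20 in PD-L2 tumors, -0.041 to 0.23 and 0.33 to 0.47 for PD-L2 against control under vehicle and inhibitor, and 0.15 to 0.42 for the interaction. The share in PD-L2 BRAFi tumor 2 was 20.02% without small RNA genes, and on that scale the shares of the PD-L2 groups overlapped. Relative to the median of the group, 20 genes in control tumors became 8 (length), 13 (GC) and 0 (length, GC and block), and 5 to 23 with each library left out; on average 24 became 13, 19, 1 and 20 to 26. The GC, combined and relative settings were added after the data were seen. Estimates turned above 0 for Rpl23a in control tumors (0.0051) and on average for Rpl23a (0.0073), Rpl4 (0.094), Rpl7a (0.013), Rps18 (0.0025) and Rps3a1 (0.083) with quantile normalization, and for Rpl18 (0.073), Rpl8 (0.0070) and Rps18 (0.040) with length and GC removed. Causes were not tested. Same-numbered tumors did not deviate together: of 18 pairs, correlations ran from -0.37 to 0.24 with 6 above 0.1, so the replicate block pairs only numbers. The depth is unknown, which leaves the precision of low genes such as Rps4l and Rpl26 unstated.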

Other observations

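Some nuclear genes for the mitochondrial ribosome and for oxidative phosphorylation fell under the inhibitor in control tumors, where 3.91% of all genes tested fell. Of 76 mitochondrial ribosomal protein genes, 17 fell and 0 rose (limma), with a median log2 fold change of -0.26, and Mrpl54 (-1.03 ± 0.13, SE; adjusted p = 0.0182) and Mrps24 (-0.88 ± 0.14; adjusted p = 0.0281) had the smallest p. Of 79 tested oxidative phosphorylation genes, 34 fell and 0 rose, with a median of -0.48, led by Ndufa1 of complex I (-0.70 ± 0.11, SE; adjusted p = 0.0277) and Cox6a1 of cytochrome c oxidase (-0.83 ± 0.13; adjusted p = 0.0277). In PD-L2 tumors 0 genes of either list passed (limma), with medians of -0.23 and -0.30, and on average over both genotypes 36 and 53 fell and 0 rose, where 11.2% of all genes tested fell. As with the cytosolic genes, these are mostly short transcripts, and the part of length was not tested for these lists.

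Rps6 was high in PD-L2 vehicle tumor 3 and PD-L2 BRAFi tumors 1 and 3, and its neighbours on the chromosome, chosen after these values were seen, were compared library by library. Rraga, which encodes a GTPase of the amino acid branch of mTOR signalling, had 73.9, 75.4 and 88.3 FPKM in those 3 tumors and 48.8 to 55.3 FPKM in the other 9. Haus6 had 8.32, 8.31 and 11.4 FPKM in them and 3.20 to 8.02 FPKM in the others. Dennd4c, Plin2, Klhl9, Mllt3, Focad, Mtap, Cntln and Cdkn2a, the other neighbours examined, did not have these same 3 libraries as their 3 highest. The order of genes is from RefSeq on GRCm38. Pdcd1lg2, compared after these values were seen, was also highest in those 3 tumors, at 114, 176 and 171 FPKM. In PD-L2 vehicle tumors 1 and 2 and PD-L2 BRAFi tumor 2 it had 41.3, 58.2 and 20.8 FPKM. No cause of this pattern was tested.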
